A study of Rattus norvegicus with 12 samples.

Results

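Transcripts of 10 platelet receptor, adhesion and granule genes were followed in whole blood of 2 inbred rat strains, after chronic restraint stress (CRS) or none. The genes were chosen by symbol: the receptors Gp1ba and Clec1b, the integrin chains Itga2b and Itgb3, the tetraspanin Cd9, the adhesive proteins Vwf and Thbs1, the chemokines Pf4 and Ppbp, and the enzyme Ptgs1. Of the 17337 genes in the count tables, 9 of these 10 had a row, and 8 passed the filter on low counts (2781 of all genes did). Itga2b had no row, so its level was not analysed here, and Ppbp, with 25 counts over all libraries, fell below the filter. The symbols were listed after fold changes of these libraries had been seen for both restraint and strain. Fold changes and counts of called genes are therefore descriptions, and no pattern among them is independent support.

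The 12 libraries fell into 4 groups of 3, all from adult male rats: WKY (Wistar Kyoto) after CRS, WKY with no stress (NS), F344 (Fischer) after CRS, and F344 with NS. Every rat, aged 70 to 90 days, first went through contextual fear conditioning and then spent 4 weeks in the home cage. CRS rats were next held in restraint bags for 2 hours a day over 2 weeks, while NS rats stayed in the home cage. All rats, stressed or not, were conditioned a second time and killed by decapitation 24 hours after its second day, so no group is naive to fear conditioning. Fresh blood went into PAXgene tubes, and total RNA was sequenced by Ion Proton protocols. The labels leave unsaid whether every library is a different animal, and the p-values cover library-to-library spread, part of which may be technical.

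Platelets are small cell fragments without a nucleus, shed by megakaryocytes in the bone marrow, and they carry RNA inherited from the parent cell. At a damaged vessel wall, glycoprotein Ib (with its chain Gp1ba) binds von Willebrand factor (Vwf), and the integrin made of Itga2b and Itgb3 then links platelets to each other. On activation, the granules release chemokines and adhesive proteins, and Ptgs1 starts the synthesis of thromboxane. In whole blood, fewer platelets and less RNA per platelet cannot be told apart, here or in any result that follows.

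Promoter sequences from RefSeq (250 bases before to 50 after the start, build GRCr8) were used for 7 of the 10 genes. Each was searched on both strands for 5 motifs of factors known in megakaryocytes. GATA factors were searched as AGATAA, and also as the variant with the letters TGATAA. ETS factors were searched as AGGAAG, RUNX factors as the letters TGTGGT, and MEIS factors as the letters TGACAG. The pair of GATA motifs share 5 letters and cannot match at the same place on the same strand. A GATA motif lay in the windows of Gp1ba, Clec1b and Itga2b, 3 of 7, against 18.9% of 33469 rat promoters. The ETS motif lay in 6 of 7, all but Ppbp, against 34.5% of promoters. The 4 windows printed here are those of 2 receptors with a GATA motif and of the 2 genes with the largest WKY excess of fitted level, which hold an ETS motif alone. Capitals mark the motifs on either strand, and all are written 5′ to 3′ on the strand of the gene. Gp1ba lies at chr10:55851309-55851608, plus strand, Clec1b at chr4:164533859-164534158, plus strand, Thbs1 at chr3:125510000-125510299, plus strand and Cd9 at chr4:159975309-159975608, minus strand.
Gp1ba: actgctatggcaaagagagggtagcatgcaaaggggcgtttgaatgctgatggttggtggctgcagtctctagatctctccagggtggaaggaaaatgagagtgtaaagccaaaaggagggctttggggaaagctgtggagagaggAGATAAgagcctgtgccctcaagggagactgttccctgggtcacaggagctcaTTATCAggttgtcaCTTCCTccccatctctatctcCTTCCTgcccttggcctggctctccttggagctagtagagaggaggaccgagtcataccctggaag
Clec1b: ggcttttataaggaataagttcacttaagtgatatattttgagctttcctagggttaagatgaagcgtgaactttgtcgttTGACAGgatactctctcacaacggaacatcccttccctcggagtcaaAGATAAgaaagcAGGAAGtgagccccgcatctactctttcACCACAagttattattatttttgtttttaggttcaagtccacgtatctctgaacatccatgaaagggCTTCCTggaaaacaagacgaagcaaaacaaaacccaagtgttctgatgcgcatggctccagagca
Thbs1: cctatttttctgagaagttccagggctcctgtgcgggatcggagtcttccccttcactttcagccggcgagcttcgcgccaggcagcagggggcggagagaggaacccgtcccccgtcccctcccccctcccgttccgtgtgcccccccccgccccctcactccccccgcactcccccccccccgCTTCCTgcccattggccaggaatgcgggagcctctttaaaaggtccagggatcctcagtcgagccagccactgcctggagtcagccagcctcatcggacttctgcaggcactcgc
Cd9: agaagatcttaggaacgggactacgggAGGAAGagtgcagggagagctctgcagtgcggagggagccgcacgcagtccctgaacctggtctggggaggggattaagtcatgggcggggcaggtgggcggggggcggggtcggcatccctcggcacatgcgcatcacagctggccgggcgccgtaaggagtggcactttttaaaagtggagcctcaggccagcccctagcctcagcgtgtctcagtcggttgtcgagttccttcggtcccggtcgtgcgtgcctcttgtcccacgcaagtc
Counted from the start of the gene, the GATA motifs of Gp1ba lie at -104 and -51, and that of Clec1b at -122. These matches describe letters in a window and do not show that a factor binds there.

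Depth bears on every value. Genes received 1691956 to 3846263 counts per library, of which the 3 most abundant features took 88.9% to 94.6%, leaving 90796 to 419789 counts for all other genes. Levels are given as CPM (counts scaled to library size, with TMM factors), and 1 count was worth 0.202 to 1.144 CPM. The 9 platelet genes together had 36 to 535 counts per library. Their summed level was 116, 185 and 167 CPM in stressed WKY, 123, 115 and 67.7 CPM in unstressed WKY, 91.0, 102 and 87.9 CPM in stressed F344, and 75.3, 50.6 and 41.2 CPM in unstressed F344. The 4 libraries with the fewest counts outside the 3 most abundant features were all unstressed, namely F344 replicates 3, 2 and 1 and WKY replicate 3, and they had the 4 lowest sums. Scaled to CPM over the counts outside the 3 most abundant features, the sum was 396 and 424 in unstressed F344 replicates 3 and 2, 1026 in unstressed WKY replicate 3 and 1238 in unstressed F344 replicate 1, against 1031 to 1822 in the other libraries. By the scaled library size behind CPM the order differed. Stressed WKY replicate 2, with the highest sum, had 2292840, against 2583660 in unstressed WKY replicate 3 and 3626150 in unstressed F344 replicate 1. In what follows, the shallowest libraries are those with the fewest counts outside the 3 most abundant features. The part of depth in the restraint and strain differences was not tested.

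**Figure D1:**
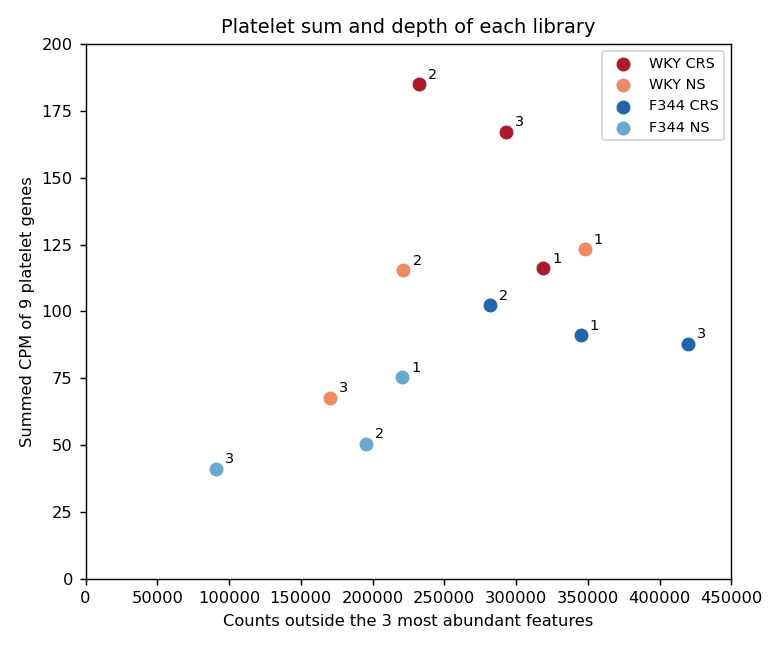
Summed level of 9 platelet genes (CPM, vertical axis) against counts outside the 3 most abundant features (horizontal axis) for each library, with colours for groups and numbers for replicates. The 4 libraries with the fewest such counts have the 4 lowest sums, 41.2 to 75.3 CPM, and all are unstressed. By the scaled library size behind CPM the order of depth differs.

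Gp1ba, the von Willebrand factor binding chain of glycoprotein Ib, had its highest levels in stressed F344. It stood at 2.55, 3.93 and 1.97 CPM in stressed WKY and at 2.99, 3.604 and 0.774 CPM in unstressed WKY. In stressed F344 it stood at 7.67, 4.10 and 4.67 CPM, and in unstressed F344 at 3.31, 1.22 and 1.144 CPM. All stressed F344 libraries lay above every library of the other 3 groups. Over restraint the fitted log2 fold change was 0.10 (SE 0.520) in WKY and 1.26 (SE 0.517) in F344. Between strains it was -1.01 (SE 0.460) for WKY over F344 under CRS and 0.15 (SE 0.578) under NS. Without unstressed F344 replicate 1 the restraint value in F344 was 2.21 and the strain value under NS 1.09. No difference passed in the fit of all genes (edgeR adjusted p from 0.3945 to 0.980 over these 4), and only 1 to 38 reads stood behind each value. In the GRCr8 annotation Gp1ba overlaps Slc25a11 and Chrne, with 37 and 12 counts in all, so reads shared with them may be missing.

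The other subunits of the glycoprotein Ib complex gave a mixed picture. Gp1bb had 0 counts in all 12 libraries, and Gp9 had 43 in total. Reads recorded as ambiguous took 78.3% to 83.6% of all counts. Whether the 0 of Gp1bb comes from its level or from how reads were counted was not tested. Gp5 stood at 4.33, 10.5 and 5.91 CPM in stressed WKY and 5.30, 6.88 and 3.10 CPM in unstressed WKY, against 4.64, 4.44 and 6.09 CPM in stressed F344 and 4.41, 1.83 and 3.43 CPM in unstressed F344. Its groups overlapped between strains under CRS (log2 0.38, SE 0.383, for WKY over F344), where those of Gp1ba did not.

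Clec1b, the receptor for podoplanin that starts platelet signalling through Syk, was higher after CRS in both strains and close to equal between strains after CRS. It stood at 6.11, 10.03 and 13.1 CPM in stressed WKY, against 8.52, 5.24 and 2.71 CPM in unstressed WKY. It stood at 5.85, 11.6 and 11.4 CPM in stressed F344, against 5.24, 3.65 and 2.29 CPM in unstressed F344. The stressed and unstressed groups overlapped in WKY and not in F344. The fitted log2 fold changes for CRS over NS were 0.75 (SE 0.391) in WKY and 1.17 (SE 0.439) in F344, and for WKY over F344 0.02 (SE 0.368) under CRS. None passed (edgeR adjusted p = 0.891 in WKY, 0.918 in F344 and 0.990 between strains under CRS).

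Itgb3, the beta chain shared by the fibrinogen receptor and the vitronectin receptor, was higher in WKY. It stood at 24.7, 38.4 and 35.2 CPM in stressed WKY, against 18.6, 20.8 and 18.9 CPM in stressed F344. It stood at 30.4, 25.6 and 17.8 CPM in unstressed WKY, against 20.4, 8.53 and 8.01 CPM in unstressed F344. The strains did not overlap under CRS, and under NS F344 replicate 1 lay above WKY replicate 3.

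Cd9, a tetraspanin that sits beside integrins in platelets and in many leukocytes, was also higher in WKY. It stood at 12.5, 18.3 and 20.04 CPM in stressed WKY, against 6.26, 10.6 and 6.70 CPM in stressed F344. It stood at 10.4, 11.5 and 11.2 CPM in unstressed WKY, against 10.2, 5.48 and 3.43 CPM in unstressed F344. The strains did not overlap under either treatment, although replicate 1 of each strain nearly met under NS. Restraint separated the WKY groups (log2 0.61, SE 0.328), while in F344 they overlapped (log2 0.08, SE 0.378, and 0.72 without unstressed F344 replicate 1).

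Vwf, the multimeric ligand of Gp1ba made by megakaryocytes and endothelium, was highest in stressed WKY and lowest in unstressed F344 by group mean. It stood at 15.3, 27.0 and 20.04 CPM in stressed WKY, against 16.8, 15.4 and 11.6 CPM in unstressed WKY. It stood at 13.9, 14.7 and 12.0 CPM in stressed F344, against 10.5, 3.65 and 5.72 CPM in unstressed F344. Within each treatment every WKY library lay above every F344 library, and stressed F344 lay above unstressed F344. Across treatments they were not separate, as unstressed WKY replicate 3 lay below all stressed F344 libraries. Endothelial markers gave almost no signal: 11 genes, among them Cdh5 and Kdr, summed to 0.764 to 2.30 CPM in stressed WKY, 2.29 to 4.14 CPM in unstressed WKY, 2.84 to 4.10 CPM in stressed F344 and 2.44 to 4.58 CPM in unstressed F344. All 11 had at least 1 count somewhere and none passed the filter on low counts.

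Thbs1, the granule protein thrombospondin 1, which monocytes also make, showed the largest strain difference of the 8 tested genes. It stood at 17.8, 36.2 and 24.0 CPM in stressed WKY, against 13.3, 11.9 and 8.32 CPM in stressed F344. It stood at 19.3, 22.6 and 11.6 CPM in unstressed WKY, against 11.3, 5.48 and 6.86 CPM in unstressed F344. No F344 library reached the level of a WKY library under the same treatment, with the closest pair at 11.6 and 11.3 CPM under NS.

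Pf4 and Ppbp are platelet chemokine genes that neighbour each other on chromosome 14 in the GRCr8 annotation. Pf4 stood at 28.3, 40.6 and 42.7 CPM in stressed WKY, against 26.7, 27.9 and 10.1 CPM in unstressed WKY. It stood at 19.4, 22.2 and 18.1 CPM in stressed F344, against 10.8, 18.3 and 11.4 CPM in unstressed F344. All stressed WKY libraries lay above all 9 others, and unstressed WKY replicate 3 was the lowest of the 12. Ppbp had 0, 0 and 3 counts in stressed WKY and 1 in each unstressed WKY library, against 4, 6 and 5 in stressed F344 and 2, 1 and 1 in unstressed F344. Over both treatments that was 6 counts in WKY and 19 in F344, a rate ratio of 0.311 for WKY over F344 (exact conditional 95% interval 0.102 to 0.810, counting error only). In these pooled counts the direction of Ppbp was opposite to that of Pf4, at a depth of 25 reads. Of the 19 counts in F344, 15 came from stressed libraries, and spread between libraries is not part of the interval.

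Ptgs1, cyclooxygenase 1, was the one gene whose stressed libraries lay above the unstressed ones in both strains. It stood at 8.92, 10.5 and 9.20 CPM in stressed WKY, against 7.83, 3.28 and 1.55 CPM in unstressed WKY. It stood at 5.25, 4.44 and 6.90 CPM in stressed F344, against 3.03, 3.65 and 1.144 CPM in unstressed F344. Of all tested genes, 0.252% separated upward in both strains in this way and 0.467% downward. The fitted log2 fold changes for CRS over NS were 1.06 (SE 0.395) in WKY and 0.95 (SE 0.483) in F344, and neither passed (edgeR adjusted p = 0.787 and 0.918).

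**Figure D2:**
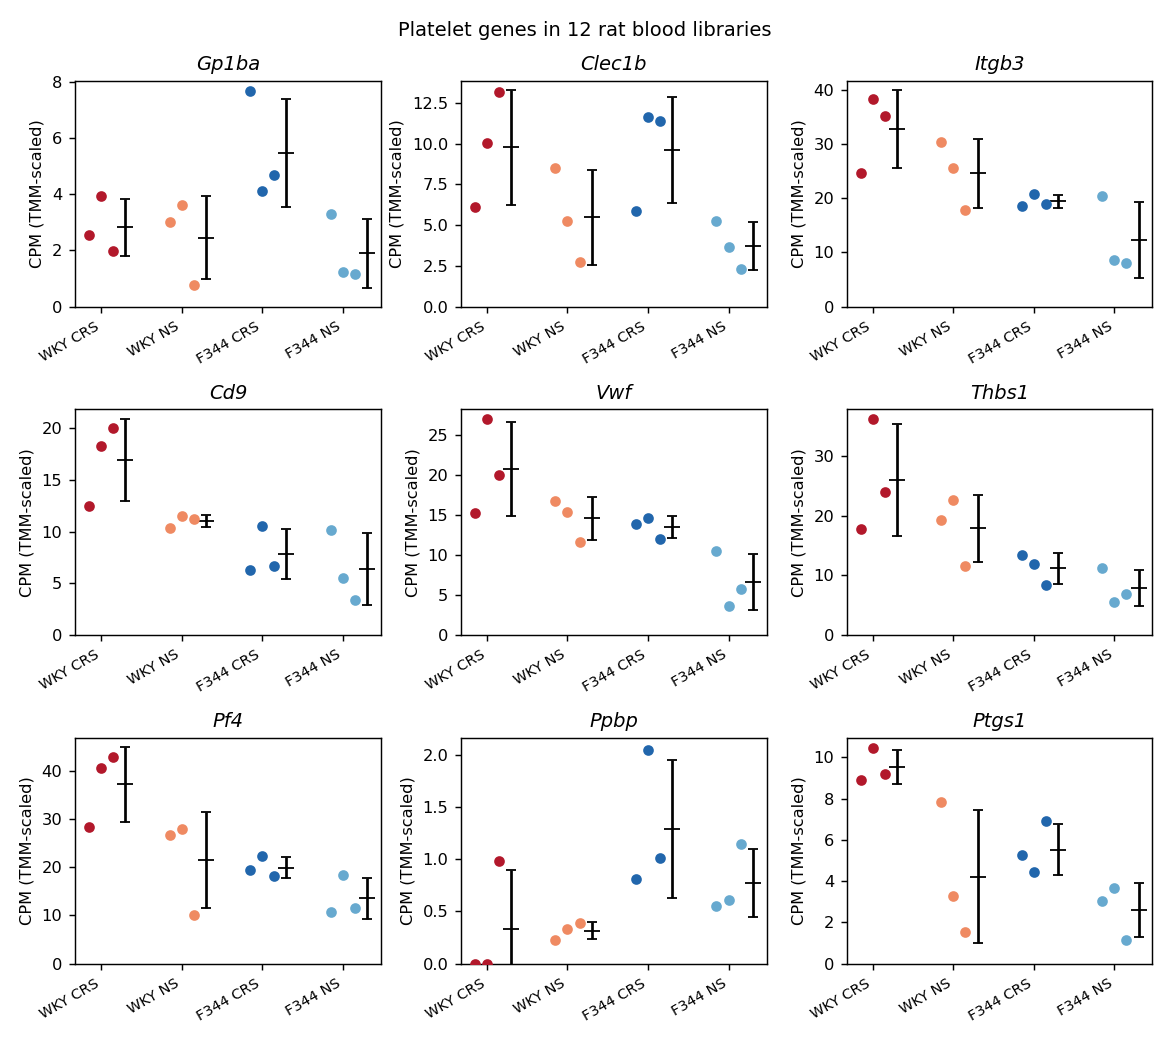
Level of each of 9 platelet genes (CPM after TMM scaling, vertical axis from 0) in the 3 libraries of each group (points in replicate order), with the group mean and SD as black marks. Gp1ba and Ppbp are highest in stressed F344, while Thbs1, Cd9, Vwf, Itgb3 and Pf4 have their highest mean in stressed WKY.

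The restraint comparison asked how CRS changed these genes within each strain. In WKY all 8 tested genes had positive fold changes, from log2 0.10 (Gp1ba) to 1.06 (Ptgs1), with a median of 0.56. In F344 all 8 were positive too, from log2 0.08 (Cd9) to 1.26 (Gp1ba), with a median of 0.72. Over all tested genes the medians were 0.02 and 0.01, and 51.2% and 51% were positive. Separate groups, with CRS above NS, were seen in WKY for Cd9, Pf4 and Ptgs1 (3 of 8, against 4.93% of all genes) and in F344 for Gp1ba, Clec1b, Vwf and Ptgs1 (4 of 8, against 6.22%). None lay wholly below (against 5.18% of all genes in WKY and 5.68% in F344). Without unstressed F344 replicates 2 and 3, 6 of 8 were positive in F344, with Itgb3 at log2 -0.01 and Cd9 at -0.34. Monocyte marker sums also separated with restraint in F344, at 82.3 to 91.9 CPM after CRS and 64.1 to 73.4 CPM under NS, and overlapped in WKY, at 126 to 174 CPM after CRS and 124 to 142 CPM under NS. Their part in the restraint values was not tested. Without the 3 shallowest libraries, which take in unstressed WKY replicate 3, 7 of 8 were positive in WKY, with Gp1ba at -0.25.

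No platelet gene passed the threshold of 0.05 after Benjamini-Hochberg adjustment over all genes in either strain. In WKY edgeR called 0 of 8, where 0% of all genes were called, with 2 of 8 at an unadjusted p under 0.05 (5.79% of all genes). In F344 it called 0 of 8, again with 0% of all genes called, with 3 of 8 at an unadjusted p under 0.05 (4.67% of all genes). Averaged over strains it called 0 of 8 against 0.036% of all genes, with 4 of 8 at an unadjusted p under 0.05 (7.08% of all genes), and DESeq2 called 0 in each of the 3 contrasts. The genes with the smallest p in the averaged contrast were Clec1b (log2 0.96, SE 0.294), Ptgs1 (log2 1.01, SE 0.311), Vwf (log2 0.68, SE 0.242) and Pf4 (log2 0.66, SE 0.238), each at an edgeR adjusted p of 0.495. The median of the 8 genes in this contrast was log2 0.67, and it was 0.33 without the 3 shallowest libraries (50.3% of all genes were positive in the fit of all libraries). In F344 the median was 1.15 without unstressed replicate 1, whose sum of 75.3 CPM was the highest of its group.

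Whether restraint acted differently in the strains was read from the interaction. edgeR called 0 of 8 genes, with 0% of all genes called and 0 of 8 at an unadjusted p under 0.05 (3.81% of all genes), and DESeq2 called 0. The largest estimate was that of Gp1ba, at log2 -1.16 (SE 0.738) for WKY minus F344 (edgeR adjusted p = 0.993). Cd9 was at 0.53 (SE 0.500), Clec1b at -0.43 (SE 0.592) and Vwf at -0.40 (SE 0.484). Without unstressed F344 replicate 1 these estimates were -2.10 for Gp1ba, -0.10 for Cd9, -0.85 for Clec1b and -1.13 for Vwf, and 2 of 8 genes were positive. In the fit of all libraries the other 4 genes lay between -0.12 and 0.20, and 4 of 8 were positive against 48.8% of all genes. Standard errors ran from 0.459 to 0.738, and in simulated data of this design 3.8% of 2-fold and 39% of 4-fold differences in response were called.

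**Figure D3:**
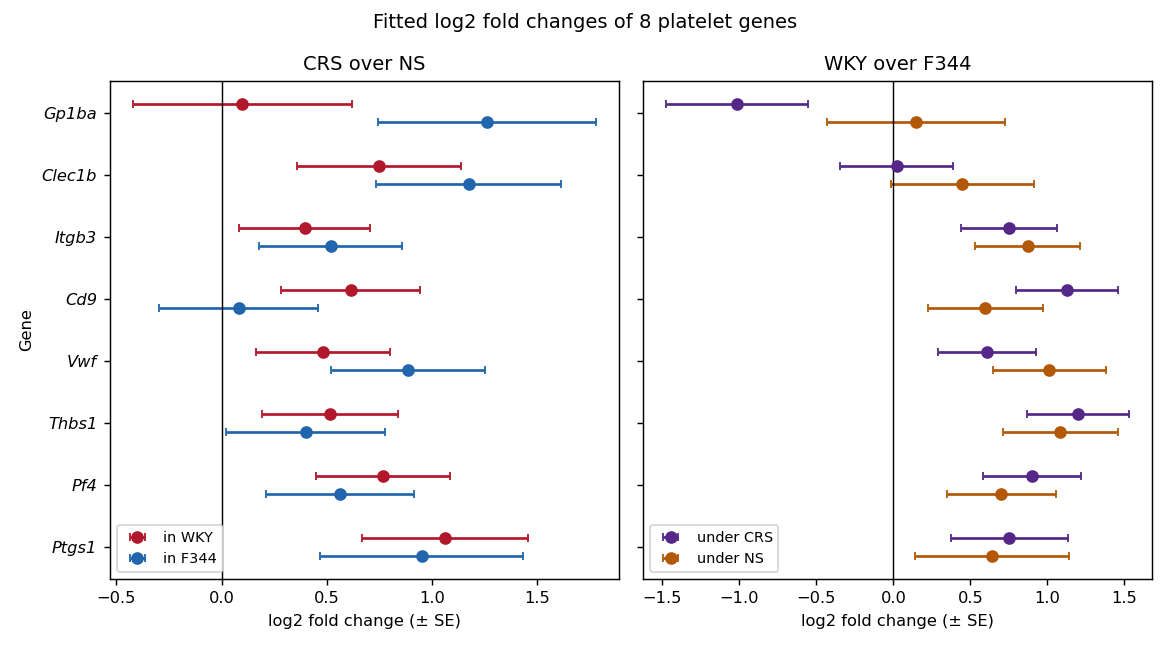
Fitted log2 fold changes with standard errors (horizontal axis) of the 8 tested platelet genes, for CRS over NS in each strain (left) and WKY over F344 under each treatment (right). Restraint values are positive for all 8 genes in both strains, and strain values are positive except for Gp1ba under CRS at -1.01.

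The strain comparison asked how WKY blood differed from F344 blood. After CRS, 7 of 8 genes were positive for WKY over F344, with a median of log2 0.75, against 50.3% of all genes positive and a median of 0.01. Itgb3, Cd9, Vwf, Thbs1, Pf4 and Ptgs1 had WKY libraries all above F344 (6 of 8, against 9.64% of all genes), and Gp1ba had them all below (1 of 8, against 9.92%). Thbs1 (log2 1.20, SE 0.330, edgeR adjusted p = 0.0583) and Cd9 (log2 1.13, SE 0.333, edgeR adjusted p = 0.0900) came nearest to the threshold. edgeR called 0 of 8 here, against 1.29% of all genes, with 5 of 8 at an unadjusted p under 0.05 (11% of all genes), and DESeq2 called 0.

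Without stress all 8 were positive, with a median of log2 0.67, against 49.3% of all genes positive and a median of -0.01. Cd9, Vwf and Thbs1 had WKY libraries all above F344 (3 of 8, against 7.7% of all genes), and none had them all below (against 6.33%). Without unstressed WKY replicate 3 the median was 1.03, and without unstressed F344 replicates 2 and 3 it was 0.43, with Gp1ba at -0.32. edgeR called 0 of 8, against 0.683% of all genes, with 3 of 8 at an unadjusted p under 0.05 (9.31% of all genes), and DESeq2 called 0. Thbs1 (log2 1.08, SE 0.370) and Vwf (log2 1.01, SE 0.367) had the largest fold changes. Without unstressed F344 replicate 1, edgeR called Itgb3 (log2 1.59, adjusted p = 0.0304) and Vwf (log2 1.74, adjusted p = 0.0469). This strain comparison and the one after CRS share no libraries with each other, while each shares its groups with the restraint comparisons.

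Averaged over treatments, 7 of 8 genes were positive (against 49.1% of all genes) and 4 of 8 passed, against 3.74% of all genes. The same rule of separate groups, met under both treatments at once, held upward for Cd9, Vwf and Thbs1 (against 2.19% of all genes) and downward for none (against 1.62%). Cd9 and Vwf neighbour each other on chromosome 4 in the GRCr8 annotation, and whether this bears on their strain values was not tested. Thbs1 was higher in WKY by log2 1.143 (SE 0.248, edgeR adjusted p = 0.00359), Itgb3 by 0.81 (SE 0.231, 0.0416), Cd9 by 0.86 (SE 0.249, 0.0433) and Pf4 by 0.80 (SE 0.238, 0.0483). Vwf (log2 0.81, SE 0.242, edgeR adjusted p = 0.0520), Ptgs1 (log2 0.70), Clec1b (log2 0.23) and Gp1ba (log2 -0.43) did not pass. Thbs1 passed whichever single library was left out, with edgeR adjusted p from 0.00116 to 0.0217. Itgb3, Cd9 and Pf4 each missed the threshold in 9 of 12 such fits, with edgeR adjusted p up to 0.131, 0.133 and 0.170. Itgb3 kept its call when unstressed F344 replicate 1, unstressed WKY replicate 3 or stressed WKY replicate 1 was removed. Cd9 kept it when the library removed was replicate 1 of unstressed F344, 2 of stressed F344 or 1 of stressed WKY. Pf4 kept it when that was replicate 2 of unstressed F344, 3 of unstressed WKY or 1 of stressed WKY. Without both unstressed F344 replicates 2 and 3 none of the 8 passed, with Thbs1 at log2 0.96 (edgeR adjusted p = 0.116) and Itgb3 at 0.54, and without the 3 shallowest libraries only Pf4 passed (edgeR adjusted p = 0.0161).

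Monocyte markers moved with strain as well. The 11 markers with a row, Cd68, Lyz2 and Cybb among them, summed to 126 to 174 CPM in stressed WKY and 124 to 142 CPM in unstressed WKY, against 82.3 to 91.9 CPM in stressed F344 and 64.1 to 73.4 CPM in unstressed F344. All 11 had counts. Of the 4 tested, all 4 were positive for WKY over F344 averaged over treatments and 2 passed, Cybb (log2 1.73) and Lyz2 (log2 1.00), where 49.1% of all genes were positive and 3.74% passed. Thbs1, Cd9 and Ptgs1 are known to be transcribed in monocytes too, and the part of those cells in the strain differences was not tested. T cell markers summed to 29.2 to 32.9 CPM in stressed WKY and 27.5 to 36.8 CPM in unstressed WKY, against 42.7 to 48.9 CPM in stressed F344 and 36.5 to 54.9 CPM in unstressed F344, with 7 of 8 tested markers negative and 1 passing. Erythroid markers summed to 835 to 1158 CPM in stressed WKY and 797 to 876 CPM in unstressed WKY, against 898 to 1056 CPM in stressed F344 and 668 to 1486 CPM in unstressed F344, sums that overlap, with 7 of 8 tested markers negative and 1 passing. Neutrophil markers were positive for WKY over F344 in 4 of 5 tested genes and B cell markers in 2 of 6, with none passing.

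Shares within the summed counts of the 9 genes do not depend on how libraries are scaled. Thbs1, Cd9 and Ptgs1 in that sum are known to be transcribed in monocytes too. The part of monocyte reads in the shares was not tested. Gp1ba made up 2.19%, 2.12% and 1.18% of the counts of the 9 genes in stressed WKY, against 8.43%, 4% and 5.31% in stressed F344. It made up 2.43%, 3.13% and 1.143% in unstressed WKY, against 4.396%, 2.41% and 2.78% in unstressed F344. The strains were separate under CRS and overlapped under NS, where exact binomial 95% intervals reached from 0.0703% to 14.5% in the shallowest F344 library. The share of Ppbp was 0.196% ± 0.340 in stressed WKY and 0.347% ± 0.200 in unstressed WKY, against 1.35% ± 0.581 in stressed F344 and 1.57% ± 1.07 in unstressed F344 (SD, n = 3 each). Thbs1 took 16.4% ± 2.78 and 17.5% ± 1.97 in stressed and unstressed WKY, against 11.9% ± 2.59 and 14.2% ± 3.00 in stressed and unstressed F344. Itgb3 took close to the same share in all groups, 21.0% ± 0.259 and 24.4% ± 2.08 in WKY after CRS and NS, against 20.7% ± 0.643 and 21.1% ± 5.33 in F344.

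**Figure D4:**
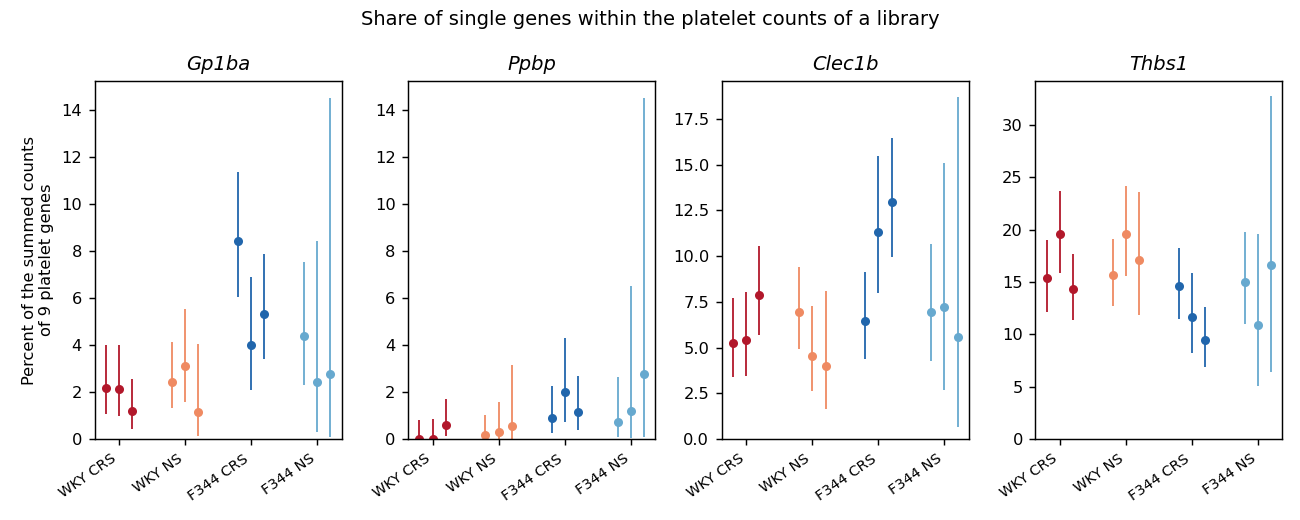
Share of the summed counts of 9 platelet genes taken by Gp1ba, Ppbp, Clec1b and Thbs1 (percent, vertical axis from 0) in each library, with exact binomial 95% intervals that cover counting error only. Gp1ba takes 1.18% to 2.19% in stressed WKY, against 4% to 8.43% in stressed F344.

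All 28 pairs had positive correlations of log2 CPM over the 12 libraries, with a median Pearson r of 0.68 (range 0.13 to 0.96), against a median of 0.00 over all pairs of tested genes. After group means were subtracted, all 28 stayed positive, with a median of 0.54 (range 0.10 to 0.89). Itgb3 and Vwf were the closest pair (r = 0.96, rho = 0.94) and Gp1ba and Cd9 the loosest (r = 0.13, rho = -0.01). Itgb3 followed the mean of the other 7 most closely (r = 0.93) and Gp1ba least (r = 0.47). The genes share library, depth and scaling in these values, so the coefficients are descriptions.

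Among the other tested genes, the pattern over the 12 libraries most like the mean of the 8 was that of P2rx1, the ATP-gated channel of platelets (r = 0.95, rho = 0.96). Among those that came next were Xdh (xanthine dehydrogenase, r = 0.93), Slc6a4 (r = 0.92), Ptprj (a receptor tyrosine phosphatase, r = 0.92), Adgre5 (r = 0.92), Actb (r = 0.91) and Pde5a (the cGMP phosphodiesterase, r = 0.90). Slc6a4 encodes the serotonin transporter, through which platelets load serotonin. It had 104 counts in all and averaged 5.40 ± 3.86 and 2.38 ± 1.45 CPM in stressed and unstressed WKY, against 2.33 ± 0.466 and 0.663 ± 0.691 CPM in stressed and unstressed F344 (SD, n = 3 each). After group means were subtracted, the 8 closest genes were Rgs3 (r = 0.94), Npy (0.94), Pla2g2a (0.93), Xdh (0.92), Cst3 (0.91), P2rx1 (0.91), Treml1 (0.90) and Anxa11 (0.89). P2rx1 and Treml1, a receptor of platelet granule membranes, belong to the lists of further platelet genes described next.

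Further platelet surface genes gave a partly similar picture. Of 24 listed, 21 had a row and 10 were tested. For CRS over NS averaged over strains 9 of 10 were positive (median log2 0.35), against 50.3% of all genes, and none passed, against 0.036%. For WKY over F344 averaged over treatments 7 of 10 were positive (median 0.34), against 49.1% of all genes, and 2 passed, against 3.74%. P2rx1 passed in the strain contrast (log2 1.56, SE 0.448, edgeR adjusted p = 0.0428), at 3.57, 10.5 and 4.60 CPM in stressed WKY and 4.14, 4.26 and 0.774 CPM in unstressed WKY, against 1.01, 3.41 and 1.83 CPM in stressed F344 and 1.65, 0.609 and 0 CPM in unstressed F344. Itga6, a laminin receptor chain of platelets and other cells, passed too (log2 0.77, SE 0.228, edgeR adjusted p = 0.0479). P2rx1 had 116 reads in all, with 6, 1 and 0 in unstressed F344. Whether the calls of P2rx1 and Itga6 hold when single libraries are left out was not tested. Itgb1 (log2 0.10) and Cd226 (log2 -0.03), the other genes of high level in this list, lay near 0 between strains.

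Further granule genes were positive in both averaged contrasts and none passed. Of 14 listed, 13 had a row and 7 were tested. For CRS over NS averaged over strains 7 of 7 were positive (median log2 0.52), against 50.3% of all genes. For WKY over F344 7 of 7 were positive (median 0.27), against 49.1% of all genes. Of all genes 0.036% passed for CRS and 3.74% for strain. Those with the highest levels were the coagulation factor F5 (log2 0.52 for CRS and 0.18 for strain), the fibrin-linking factor F13a1 (0.67 and 0.25) and Nrgn (0.69 and 0.50). Signalling and cytoskeleton genes, many of them active in all blood cells, were positive in 16 of 19 tested for CRS (median 0.23, against 50.3% of all genes positive). For strain they were positive in 16 of 19 (median 0.23, against 49.1%), with none passing in either contrast. Flna (log2 0.29 for CRS and 0.18 for strain), Tln1 (0.35 and 0.36) and Zyx (0.03 and 0.21) had the highest levels there.

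Megakaryocyte transcription factors included genes of both signs in both contrasts. Of 14 listed, 13 had a row and 8 were tested; 6 of 8 were positive for CRS averaged over strains (median log2 0.27, against 50.3% of all genes positive) and 3 of 8 for WKY over F344 (median -0.30, against 49.1%), with none passing. Nfe2 was at log2 0.30 for CRS and 0.18 for strain. Lyl1 (0.04 and -0.43) and Gata1 (0.27 and -0.46) were negative for WKY over F344. So were Fli1 (-0.47), Gfi1b (-0.42) and Zfpm1 (-0.19), while Tal1 (0.44) and Etv6 (0.07) were positive. Red cell precursors also use some of these factors. The medians over all tested genes were 0.00 for CRS and -0.01 for strain.

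**Figure D5:**
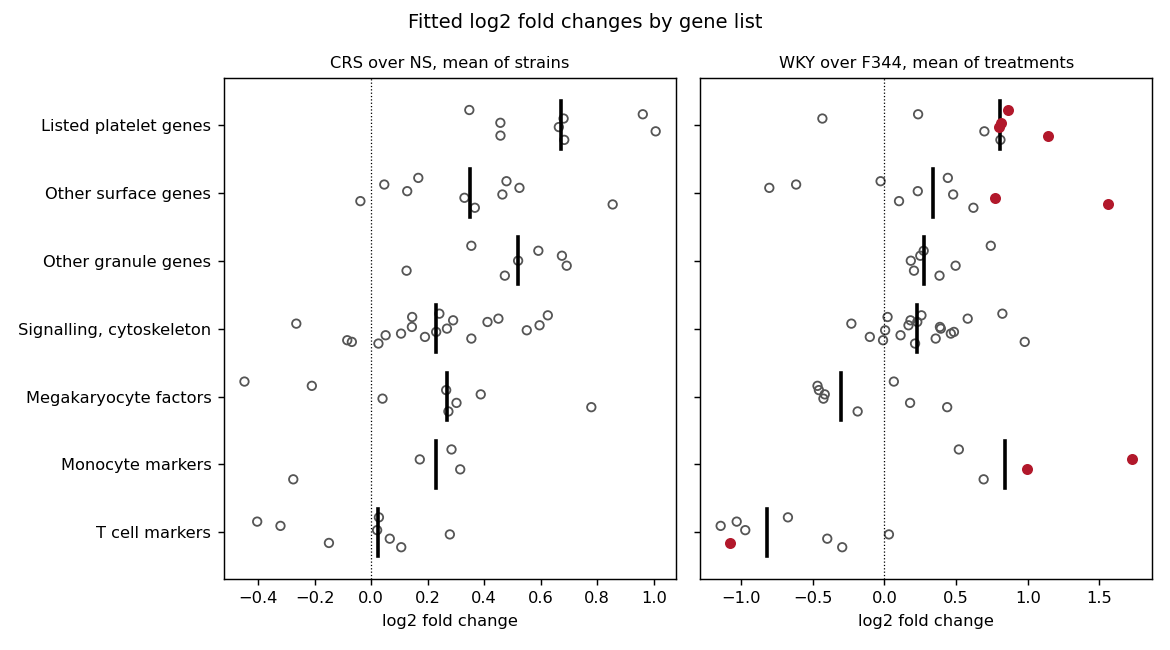
Fitted log2 fold changes (horizontal axis) of the tested genes in the listed platelet genes, 4 further platelet and megakaryocyte lists and 2 lists of other blood cell markers, for CRS over NS averaged over strains (left) and WKY over F344 averaged over treatments (right). Filled points passed the threshold, black bars are list medians, and the listed platelet genes have medians of 0.67 and 0.80.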

How the data were processed

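Raw read counts per gene were deposited by the authors for each library, in a file of whole numbers with no normalisation. Build rn6 and the tools TopHat2 2.1.0, Cufflinks 2.2.1 and cutadapt 1.14 appear in the submitters' processing notes, with no role stated. Which program counted reads, over which annotation and with which strand rule, is not given in the sources used here. The 5 rows that name no gene, 80.9% to 86.6% of all counts, stayed out of library sizes and tests. Reads recorded as ambiguous alone took 78.3% to 83.6%, which may lower genes that overlap others. Which genes this affects was not tested.

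Groups came from sample titles. Counts of all 12 libraries were fitted in 1 model of 4 group means with edgeR 4.0.16 in R 4.3.3 (glmQLFit, glmQLFTest, TMM scaling, filterByExpr with a minimum count of 10), and p-values were adjusted over all 2781 tested genes (Benjamini-Hochberg, threshold 0.05). Standard errors are the size of the fold change over the square root of F. Log2 CPM for correlations used a prior count of 2. Intervals of shares are exact binomial and cover counting error only, since reads carry no molecular identifiers. The members and gene lists were chosen with earlier results of these data known. Of each further list, the 3 genes with the highest mean CPM and any past the threshold were named, with the 8 genes of highest correlation (1 of them is not reported here), and the glycoprotein Ib subunits and Slc6a4 were described after their values were seen. Symbols were looked up in RefSeq (GRCr8), which holds 14821 of 17337. That build differs from rn6, so coordinates are given only for the RefSeq promoters.

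The procedure was checked on simulated data (2781 genes, 200 of them changed, 5 runs per contrast). Of changes of 2-fold and 4-fold, 49.6% and 88% were called in the strain contrast averaged over treatments, 19.4% and 78.2% for the WKY restraint contrast, 16.4% and 72.6% for that of F344, and 3.8% and 39% for the difference in response. Alternatives were DESeq2 1.42.0, its size factors, other low count filters, removal of the 3 most abundant features, the compared groups alone, a replicate block and left-out libraries. Leaving out the 3 shallowest libraries was added after the data were seen.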

Additional observations from a re-analysis of the deposited data

How the results depend on the processing

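The count of platelet genes that passed stayed at 0 under every alternative run for CRS in F344, CRS in WKY, CRS averaged over strains and the difference in response. For WKY over F344 averaged over treatments, where 4 passed, DESeq2 called 2, the fit without unstressed F344 replicates 2 and 3 called 0, the fit without the 3 shallowest libraries called 1, and leaving out single libraries gave 1 to 5. Under CRS, where 0 passed, 1 passed (Thbs1) with the stricter filter of 20 counts in 3 libraries, with the compared groups alone, without the 3 shallowest libraries and with the replicate block (log2 1.20, edgeR adjusted p = 0.0274), and leaving out single libraries gave 0 to 2. Under NS leaving out single libraries gave 0 to 2, with medians of log2 0.57 to 1.16. Calls over all tested genes moved with the setting as well. Over the alternatives they ranged from 31 to 130 averaged over treatments (104 in the main fit). They ranged from 18 to 50 under CRS (36 in the main fit) and from 4 to 45 under NS (19 in the main fit). The median difference in response, -0.01, ranged from -0.61 (without unstressed F344 replicate 1) to 0.14 when single libraries were left out, and in WKY the CRS median of 0.56 ranged from 0.40 to 0.77. The cause of these changes was not tested. With unstressed F344 replicates 2 and 3 removed, a lone library stands for its group, and its spread is taken to be that of the other groups.

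Direction was least stable for small effects. In the difference in response, Itgb3 and Ptgs1 each changed sign in 6 of 20 settings, and Thbs1 and Pf4 each in 5 of 20. Cd9 for CRS in F344 changed sign in 5 of 21 settings and Gp1ba for WKY over F344 under NS in 4 of 19. None of these genes passed there. Libraries with the same replicate number had correlations of deviations from group means from -0.09 to 0.20, with 4 of 18 pairs over 0.1. Libraries with different numbers were not compared, so these values cannot tell whether the numbers pair libraries. With the replicate block Vwf also passed between strains averaged over treatments (log2 0.82, edgeR adjusted p = 0.0358). No 2 libraries of a group agreed within sampling noise. Depth limits most the 3 shallowest libraries, where single genes rest on 1 to 46 reads.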
